A study of Mus musculus with 6 samples.

Results

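The carbonic anhydrases are a family of zinc enzymes that interconvert carbon dioxide and water with bicarbonate and a proton, and 9 of their genes (Car9, Car2, Car3, Car4, Car5b, Car8, Car12, Car13 and Car14) were followed here by gene name among the 55401 genes of the deposited table. They were picked as family members with the SENP7 siRNA result already known, Car9 for the size of its difference, so that their levels and differences are given as a description and carry no test. The other 9 family genes of the table (Car1, Car5a, Car6, Car7, Car10, Car11, Car15 and the receptor phosphatases Ptprg and Ptprz1, which have a carbonic anhydrase-like domain) are reported beside them.

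The family divides by place in the cell. Car1, Car2, Car3, Car7 and Car13 encode cytosolic enzymes, Car5a and Car5b mitochondrial ones, and Car4, Car9, Car12, Car14 and Car15 enzymes held on the cell surface, while Car8, Car10 and Car11 encode carbonic anhydrase-related proteins without the catalytic activity. In muscle, cytosolic Car3 is known as an abundant protein of slow fibres, and the surface enzymes are known for carbon dioxide, lactate and proton exchange across the cell membrane. CAR9 is a textbook target of the hypoxia-inducible factors (HIF), the transcription factors that are stabilised at low oxygen.

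RNA was measured by sequencing of polyadenylated transcripts in C2C12 myotubes, muscle cells formed from a mouse myoblast line in medium with little horse serum. The SENP7 siRNA group (3 libraries) received 100 pmol of siRNA for 3 days, aimed at SENP7, which cleaves the modifier SUMO from proteins. The control group (3 libraries) received the same amount of a GL2 siRNA, directed against firefly luciferase, for the same time. All 6 libraries come from 1 cell line, no untransfected cells are part of the comparison, and the submitters call the libraries of a group biological replicates. The question was which transcripts depend on SENP7.

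Gene-assigned reads numbered from 25223218 to 30865945 in a library. Values are the authors' normalized read counts, in which 1 read is worth between 0.887 and 1.11 units, and group values are the mean ± SD (n = 3 in each group). Fold changes are SENP7 siRNA over control siRNA on the log2(normalized count + 1) scale with a standard error (SE) from limma, and a gene is said to have risen or fallen where its adjusted p was below 0.05 over all 14668 genes tested. Senp7 itself fell to 300.3 ± 40.2 in SENP7 siRNA libraries, against 607.2 ± 46.9 in control libraries (log2 fold change -1.02 ± 0.11, adjusted p = 0.000428). Of all genes tested, 20.9% passed the threshold, 10.2% higher and 10.7% lower, and the groups did not overlap in 39.6%. On the first principal component the SENP7 siRNA libraries lay at -32.5 to -27.7 and control replicates 1 and 2 at 36.7 and 33.4, with control replicate 3 apart from them at 19.1, and results that rest on it are given with and without it. All 11 markers of differentiated myotubes were detected, with summed levels of 726800 to 811900 in SENP7 siRNA and 630500 to 671100 in control libraries.

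The sequence immediately before the RefSeq start is shown for Car9 and Car12, the surface enzymes that were lower after SENP7 siRNA. It is shown because HIF factors are known to bind the core letters ACGTG or GCGTG. The windows are the 250 bases before the RefSeq start on GRCm38.p6, at chr4:43506776-43507025 for Car9 and chr9:66713436-66713685 for Car12, each on the plus strand, with matches to a core in capitals.

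Car9: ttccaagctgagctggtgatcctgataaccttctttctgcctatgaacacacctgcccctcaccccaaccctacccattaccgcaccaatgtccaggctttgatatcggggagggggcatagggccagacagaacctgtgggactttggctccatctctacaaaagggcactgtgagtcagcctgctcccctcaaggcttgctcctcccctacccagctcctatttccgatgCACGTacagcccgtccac

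Car12: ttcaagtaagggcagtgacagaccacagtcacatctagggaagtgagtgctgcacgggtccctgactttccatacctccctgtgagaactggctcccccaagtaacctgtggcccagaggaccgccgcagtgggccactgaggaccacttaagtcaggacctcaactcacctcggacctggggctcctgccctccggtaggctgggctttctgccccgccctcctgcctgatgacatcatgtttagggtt

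The Car9 window held 1 match, CACGT on the gene's strand, which is ACGTG on the other strand. It lay at positions -18 to -14 from the RefSeq start and outside any CACGTG. The Car9 gene as counted starts at 43506966, before the window's end at 43507025, and this match lies inside the gene as counted. The Car12 gene as counted starts at 66713686, directly after its window. The Car12 window held no ACGTG or GCGTG on either strand. RefSeq windows were present for 5 of the 9 genes, and among the others Car14 held 1 ACGTG, Car5b 5 matches to GCGTG and Car4 none. Over all 32851 RefSeq windows of this length 16.6% held ACGTG and 38.6% held either core, so a match of this kind is common. Of the listed HIF targets described below, 42 had a window and 22 held ACGTG in any of their windows. That count is per gene and not directly comparable with the share per window.

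Car9, the HIF-induced surface enzyme, had 93.2, 88.8 and 139 normalized counts in SENP7 siRNA replicates 1, 2 and 3, against 1426, 1622 and 355 in control replicates 1, 2 and 3. The lowest control library lay above the highest SENP7 siRNA library, but control replicate 3 had far fewer counts than the other controls. The means were 107 ± 28.0 in SENP7 siRNA and 1134 ± 682 in control libraries, a 10.6-fold lower mean and a log2 fold change of -3.15 ± 0.49. The log2 fold change was -3.85 without control replicate 3, and -2.75 without control replicate 2. Of the genes tested, 0.0409% had a lower log2 fold change, but Car9 was picked for the size of its difference, so this rank carries no test. Car9 lies on chromosome 4 from 43506966 to 43513729 (ENSMUSG00000028463.14, GRCm38), and 9.29% of its exon bases lie under exons of Gm12454 on the opposite strand, whose reads cannot be assigned with certainty because the strand setting of the counting is not given in the sources used here. In these bulk libraries, fewer cells that make a transcript and less of it per cell cannot be told apart.

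Car12, the other HIF-responsive surface enzyme, had 57.7, 48.1 and 84.3 normalized counts in SENP7 siRNA replicates 1, 2 and 3, against 233, 266 and 116 in control replicates 1, 2 and 3. The groups did not overlap, and the order of the libraries within each group was the one seen for Car9, with control replicate 3 lowest among controls and SENP7 siRNA replicate 3 highest among SENP7 siRNA libraries. Its mean was 3.23-fold lower, with a log2 fold change of -1.63 ± 0.31 (-2.00 without control replicate 3). Of the remaining surface enzymes, Car4 had 0 reads in all 6 libraries. A floor of 3 reads, set for a count of 0, would be a level of 1.57 normalized counts per kb in 1 control library. Car14, a transmembrane enzyme known from muscle, had 2, 3 and 5 reads in SENP7 siRNA replicates 1, 2 and 3 and 0 reads in each control library. With the SENP7 siRNA reads taken as exact, its level was 3.14-fold above a floor of 3 reads over the control group. These 10 reads are too few for a firm lower bound, and 17.5% of the Car14 exon bases lie under exons of Aph1a on the opposite strand.

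**Figure D1:**
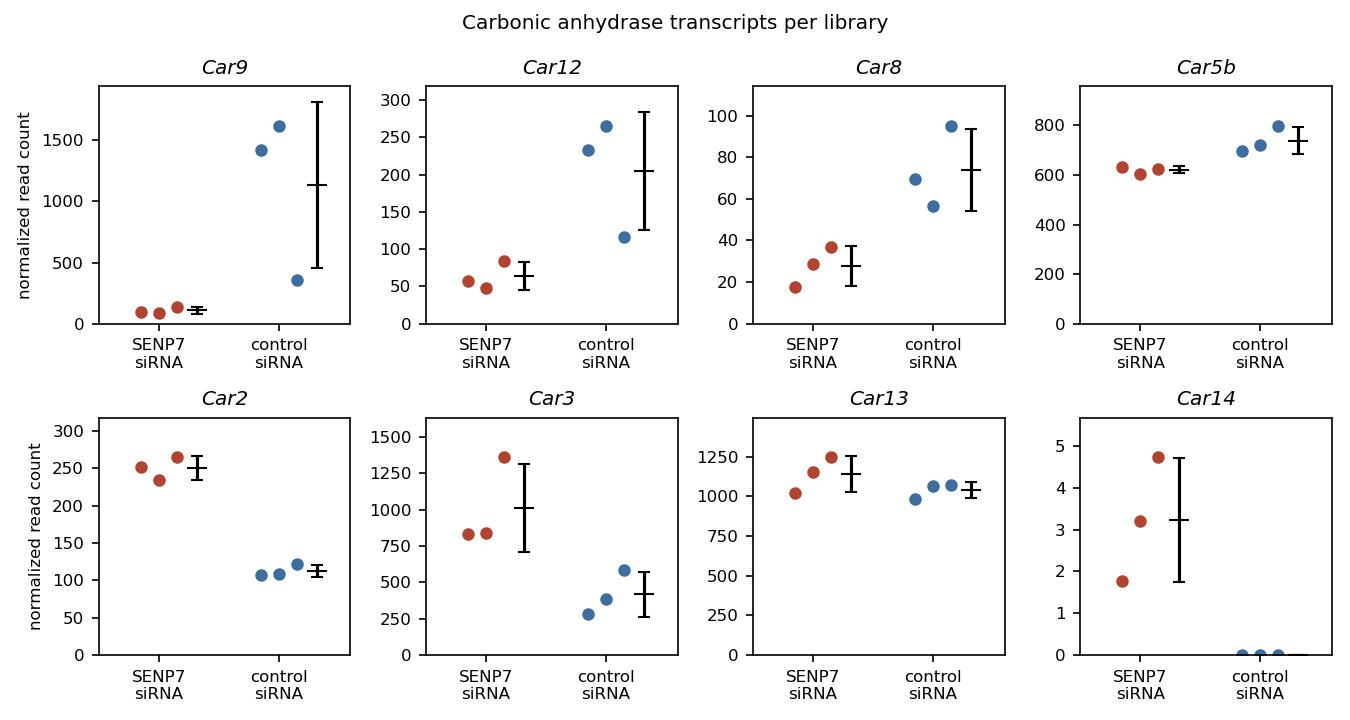
Normalized read count (linear axis from 0) of 8 carbonic anhydrase genes in each SENP7 siRNA library (red) and control library (blue), with mean and SD (n = 3) as a black bar; Car4 was at 0 throughout and is not drawn. Car9, Car12 and Car8 lay lower and Car2 and Car3 higher in SENP7 siRNA libraries without overlap, and control replicate 3 (rightmost blue point) stood far below the other controls for Car9 and Car12.

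Among the cytosolic enzymes, Car2 and Car3 were higher after SENP7 siRNA while Car13 hardly differed. Car2, the widely expressed fast enzyme, had 252, 234 and 265 normalized counts in SENP7 siRNA replicates 1, 2 and 3, against 108, 108 and 122 in control replicates 1, 2 and 3. The libraries of each group lay close together and the groups stood well apart. Its mean was 2.23-fold higher (log2 fold change 1.15 ± 0.11), and leaving out any 1 library moved the log2 fold change no further than 1.11 to 1.21.

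Car3, the muscle and fat enzyme, had 835, 840 and 1363 normalized counts in SENP7 siRNA replicates 1, 2 and 3, against 281, 387 and 588 in control replicates 1, 2 and 3. The groups did not overlap, but in each group 1 library, replicate 3, lay far above the others. The mean was 2.42-fold higher, at 1013 ± 304 in SENP7 siRNA and 419 ± 156 in control libraries (log2 fold change 1.30 ± 0.27, with 1.05 to 1.58 when 1 library was left out). Car13, a further cytosolic enzyme, had 1019, 1154 and 1248 normalized counts in SENP7 siRNA replicates 1, 2 and 3, against 986, 1064 and 1072 in control replicates 1, 2 and 3. Its groups overlapped, and the log2 fold change was 0.13 ± 0.08.

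Car5b, the mitochondrial enzyme, had 634, 604 and 626 normalized counts in SENP7 siRNA replicates 1, 2 and 3, against 697, 720 and 800 in control replicates 1, 2 and 3. The groups did not overlap although the step was small, with means of 621 ± 15.1 in SENP7 siRNA and 739 ± 53.7 in control libraries and a log2 fold change of -0.25 ± 0.07. Car8, a related protein without catalytic activity that in neurons is known to bind the inositol trisphosphate receptor, had 17.7, 28.9 and 36.9 normalized counts in SENP7 siRNA replicates 1, 2 and 3, against 69.5, 56.7 and 95.3 in control replicates 1, 2 and 3. Here control replicate 3 was the highest control, unlike in Car9 and Car12. The mean of Car8 was 2.65-fold lower and the log2 fold change -1.40 ± 0.29, on 86 reads in SENP7 siRNA and 218 reads in control libraries.

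Of the 9 genes, 7 passed the filter on low values (10 or more normalized counts in 3 or more libraries). The groups did not overlap in 6 of those 7, of which 2 were higher and 4 lower after SENP7 siRNA, where 39.6% of all genes tested had no overlap, 19.3% higher and 20.4% lower. Because the genes were chosen on this contrast, nothing is read from that count. The median log2 fold change over all genes tested was -0.0025.

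**Figure D2:**
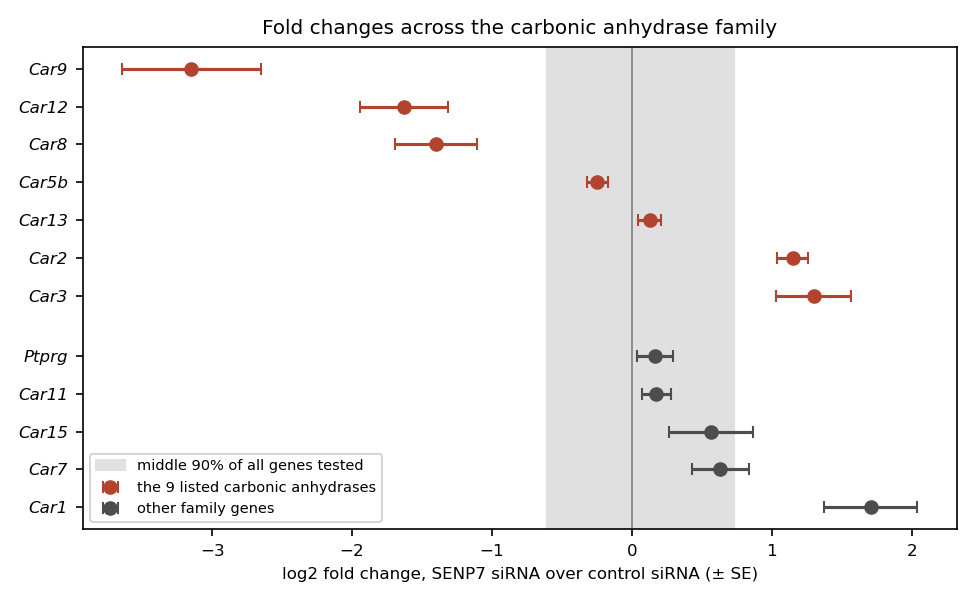
SENP7 siRNA against control siRNA as log2 fold change (horizontal axis, ± SE) for the 7 listed carbonic anhydrases that passed the filter (red) and the 5 other family genes that did (dark grey), with the middle 90% of all genes tested as a grey band from -0.60 to 0.73. Car9, Car12 and Car8 lie to the left of the band, Car2, Car3 and Car1 to its right, and the rest within it.

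Per length of exon, the make-up of the family differed between the groups. In SENP7 siRNA libraries Car13 led with 496 ± 49.9 normalized counts per kb, then Car3 with 353 ± 106, Car2 with 103 ± 6.41, Car5b with 97.8 ± 2.38, Car9 with 46.5 ± 12.1, Car12 with 8.34 ± 2.47, Car8 with 7.23 ± 2.50 and Car14 with 1.27 ± 0.58. In control libraries Car9 led with 492 ± 296 normalized counts per kb, then Car13 with 453 ± 20.7, Car3 with 146 ± 54.3, Car5b with 116 ± 8.45, Car2 with 46.4 ± 3.27, Car12 with 27.0 ± 10.4 and Car8 with 19.2 ± 5.10. Neighbours in that order overlapped in range for Car13 and Car3, Car2 and Car5b, and Car12 and Car8 in SENP7 siRNA libraries, and for Car9 and Car13, Car3 and Car5b, and Car12 and Car8 in control libraries. The lead of Car9 was seen in control replicates 1 and 2 only. In control replicate 3 Car9 had 154 normalized counts per kb, below Car13 with 466 and Car3 with 205.

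Car9 made up 4.08%, 3.70% and 4.62% of the summed per-length level of the 9 genes in SENP7 siRNA replicates 1, 2 and 3, against 45.9%, 46.6% and 14.8% in control replicates 1, 2 and 3. Car3 made up 29.4%, 28.2% and 36.3% in SENP7 siRNA replicates 1, 2 and 3, against 7.28%, 8.95% and 19.7% in control replicates 1, 2 and 3. The sum itself was 992, 1041 and 1310 normalized counts per kb in SENP7 siRNA replicates 1, 2 and 3, against 1349, 1509 and 1041 in control replicates 1, 2 and 3. The sums overlapped between the groups only through control replicate 3, and without it both remaining control sums lay above every SENP7 siRNA sum.

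**Figure D3:**
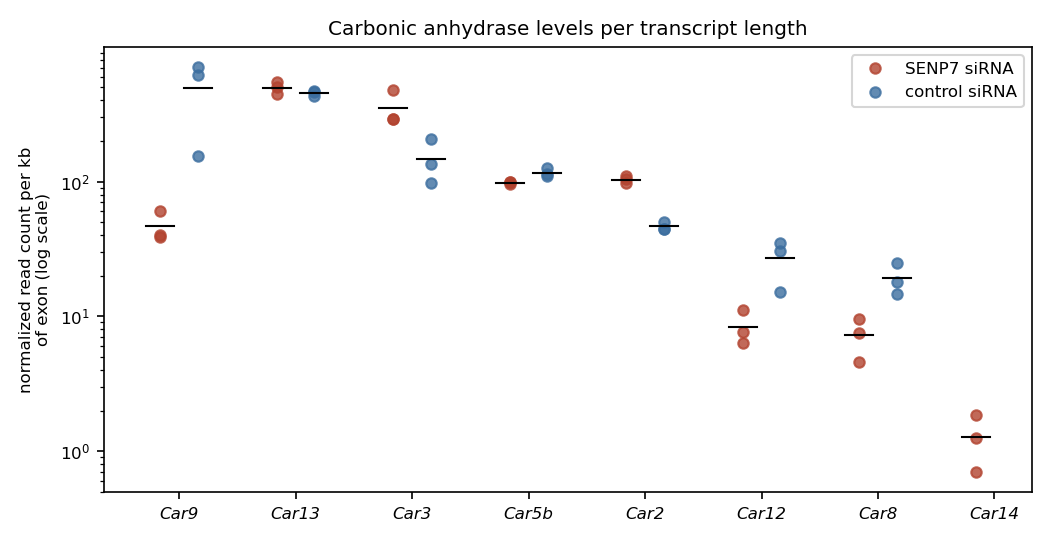
Normalized read count per kb of exon (log axis) of 8 carbonic anhydrase genes, ordered by control level, with SENP7 siRNA libraries (red, left) and control libraries (blue, right) and the group mean as a black line. Mean Car9 was 46.5 per kb in SENP7 siRNA and 492 per kb in control libraries, and mean Car13 496 per kb in SENP7 siRNA and 453 per kb in control libraries; Car14 had no read in control libraries, and Car4 none at all.

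Among the other family genes, 5 of 9 passed the filter, 1 rose and 0 fell, where 10.2% of all genes tested rose and 10.7% fell. Car1, the cytosolic enzyme of red blood cells, rose to 13.3, 27.8 and 25.6 normalized counts in SENP7 siRNA replicates 1, 2 and 3, against 6.05, 5.56 and 5.84 in control replicates 1, 2 and 3 (log2 fold change 1.71 ± 0.33, adjusted p = 0.00789). It passed the filter only through the SENP7 siRNA libraries, on 68 reads there and 17 reads in control libraries. Cytosolic Car7 was at 44.9 ± 7.94 in SENP7 siRNA and 28.4 ± 3.34 in control libraries and did not pass (0.63 ± 0.21 on the log2 scale, adjusted p = 0.0601). Car11, a related protein without catalytic activity, was at 298 ± 24.0 and 264 ± 25.6 in SENP7 siRNA and control libraries (adjusted p = 0.281), and Ptprg at 1666 ± 128 and 1503 ± 309 (adjusted p = 0.409, although 0.0115 without control replicate 3 and at most 0.865 in any setting). Car15 (12.7 ± 2.93 in SENP7 siRNA, 8.19 ± 1.38 in control libraries, adjusted p = 0.22) shares 65.7% of its exon bases with Gm20518 on the same strand. Like Car1, Car15 passed the filter only through the SENP7 siRNA libraries, on 39 reads there and 24 reads in control libraries. Car6 had 7 reads in SENP7 siRNA and 9 in control libraries, Car5a 0 and 2, and Car10 and Ptprz1 had none in any library.

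Car13, Car1, Car3 and Car2 lie in a row on chromosome 3 between 14641727 and 14900770. Within that row Car13 hardly differed between the groups while Car1, Car3 and Car2 were higher after SENP7 siRNA. The next tested gene before the row, 1810022K09Rik, and the next after it, Ythdf3, did not pass (log2 fold change -0.07 and -0.0059). Taking the nearest tested gene on each side of each of the 9 genes, 15 neighbours were outside the list. Of these 1 rose (Car1) and 1 fell, where 20.9% of all genes tested passed the threshold. Car1 passed the filter only through the SENP7 siRNA libraries, so its place in that count is tied to the contrast. The one that fell was Rab2a, a small GTPase 297 kb from Car8, at 4195 ± 203 in SENP7 siRNA and 4947 ± 279 in control libraries (log2 fold change -0.24 ± 0.07, adjusted p = 0.0333), a call lost without any 1 library other than control replicate 3 (adjusted p 0.0771 to 0.103; 0.0103 at the lowest in any setting). Tpm2, the beta-tropomyosin gene 0.982 kb from Car9, was at 89880 ± 7269 in SENP7 siRNA and 74290 ± 8523 in control libraries and did not pass (adjusted p = 0.11; between 0.0148 and 0.311 among the settings tried), nor did Arhgef39 on its other side (adjusted p = 0.13; between 0.0307 and 0.368 among them). The neighbours Znhit3 and Usp32 of Car4, Zrsr2 and Siah1b of Car5b, Nsmaf of Car8, Usp3 and Aph1b of Car12, and BC028528 and Anp32e of Car14 did not pass either, although Anp32e (adjusted p = 0.0892) passed without SENP7 siRNA replicate 3 (0.0376), with 0.303 as the highest in any setting.

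Car2, Car3 and Car1 are also known from other cell types. All 6 libraries come from 1 myoblast line, so markers of such types are given as transcript levels and not as a sign of admixed cells. Of 8 erythroid markers 5 were at 0 in every library, among them the globin genes Hbb-bs, Hbb-bt and Hba-a2. The summed erythroid level was 110 to 117 in SENP7 siRNA and 89.0 to 95.3 in control libraries. Epor was the only one of them tested, and it did not pass. The 6 osteoclast markers summed to 21.3 to 35.1 in SENP7 siRNA and 17.1 to 21.4 in control libraries, with Calcr and Dcstamp at 0. The 6 adipocyte markers summed to 1.90 to 3.55 in SENP7 siRNA and 1.95 to 3.02 in control libraries, and the 6 macrophage markers to 59.9 to 72.0 in SENP7 siRNA and 63.5 to 70.1 in control libraries, with Adgre1 at 0; of the 2 tested macrophage markers 1 rose and 0 fell. The 6 chondrocyte markers summed to 854 to 1021 in SENP7 siRNA and 1085 to 1417 in control libraries. Of these only Sox9 was tested, and it fell, where 10.7% of all genes tested fell. The 9 markers of undifferentiated or cycling myoblasts summed to 8980 to 10260 in SENP7 siRNA and 8124 to 10840 in control libraries, 3 of them having risen and 0 fallen. Of the 11 myotube markers 4 rose and 0 fell, and for each of these lists the share of all genes tested that rose was 10.2%. The part of these markers in the carbonic anhydrase differences was not tested.

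The genes whose library profile was nearest to that of Car9 shared its low value in control replicate 3. Likeness was the root mean square difference between centred log2 profiles over the 6 libraries, among 11930 tested genes with a mean of at least 50. The 8 nearest were 2610528A11Rik (0.27), the mast cell protease Mcpt8 (0.34), Prr9 (0.46), the small proline-rich protein Sprr1a (0.48), the T cell receptor constant region Trdc (0.55), the acyl-CoA synthetase Acsbg1 (0.57), the peptide hormone apelin (Apln, 0.64) and the receptor Gpr35 (0.68). All 8 lay lower in every SENP7 siRNA library than in any control library, and their control libraries differed by 2.19-fold to 6.51-fold from lowest to highest, against 4.57-fold for Car9. Among the carbonic anhydrases Car12 was nearest (0.83), then Car8 (1.28), and Car3 was among the farthest (2.43). Because these genes were picked for sharing the Car9 profile, their differences carry no test.

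**Figure D4:**
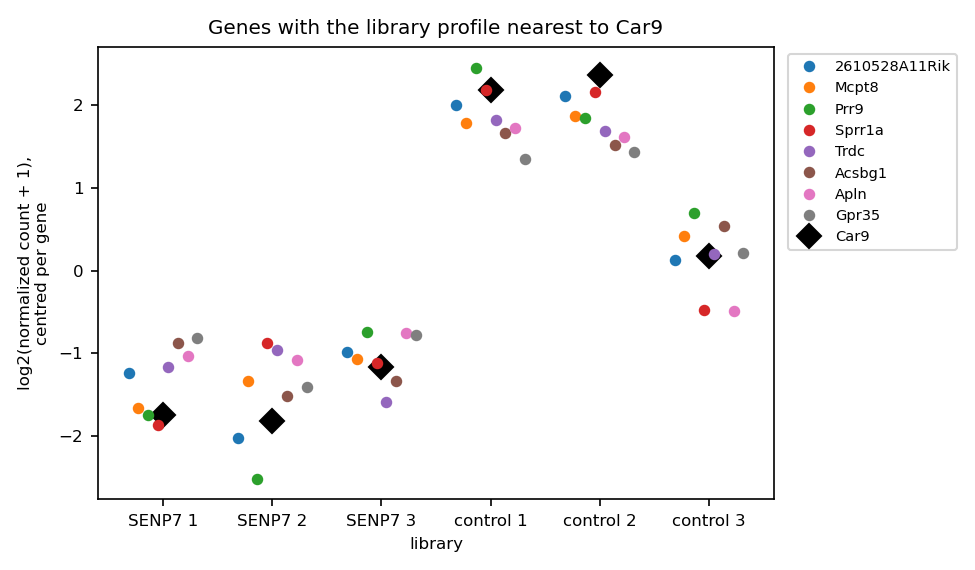
Log2(normalized count + 1), centred per gene, in each library for Car9 (black diamonds) and the 8 genes with the nearest profile (coloured points). All lie low in the 3 SENP7 siRNA libraries, high in control replicates 1 and 2 and between in control replicate 3, where Car9 had 355 normalized counts.

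The HIF targets, the class to which Car9 belongs, were mostly lower after SENP7 siRNA. Of 50 listed genes other than carbonic anhydrases 49 were tested, and 0 rose, 30 fell (61.2%) and 19 did not pass, where 10.7% of all genes tested fell. The median log2 fold change of the list was -0.61. This list was chosen with earlier results of these data known, as were the lists of transporters, proton pump genes and bicarbonate-using enzymes that follow. Their shares beside those of all genes tested are therefore a description and no independent test. Gbe1, the glycogen branching enzyme, fell to 124, 106 and 114 normalized counts in SENP7 siRNA replicates 1, 2 and 3, against 703, 726.5 and 542 in control replicates 1, 2 and 3 (log2 fold change -2.50 ± 0.13, adjusted p = 1.85e-05). Egln3, an oxygen sensor that marks HIF for breakdown, fell to 1742, 1651 and 1369 in SENP7 siRNA replicates, against 7738, 8776 and 4689 in control replicates (log2 fold change -2.11 ± 0.20, adjusted p = 0.000264). Ndrg1 (-0.88 ± 0.13, adjusted p = 0.00178) and hexokinase 2 (Hk2, -0.53 ± 0.08, adjusted p = 0.00275) fell by less on the log2 scale.

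In that list control replicate 3 again lay between the SENP7 siRNA libraries and the other controls. The mean log2 level of the list was 10.96, 10.93 and 10.88 in SENP7 siRNA replicates 1, 2 and 3, against 11.75, 11.77 and 11.18 in control replicates 1, 2 and 3. Without control replicate 3, 41 members fell, and 12 fell without control replicate 2. The number that fell was 17 without control replicate 1, and 16, 14 and 16 without SENP7 siRNA replicates 1, 2 and 3, and it was 14 with no filter on low values. HIF activity was not measured, and its part in the Car9 and Car12 differences was not tested.

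**Figure D5:**
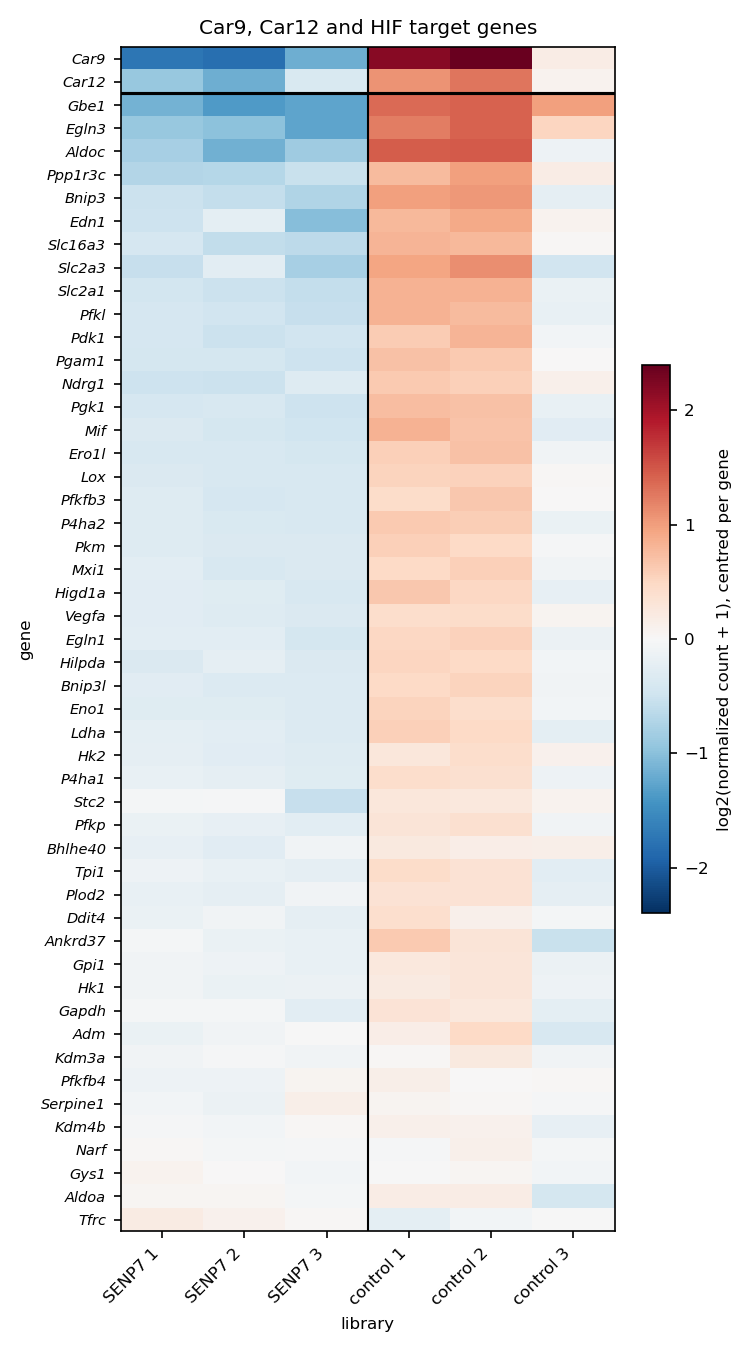
Log2(normalized count + 1), centred per gene (colour), in the 6 libraries (columns, SENP7 siRNA left of control) for Car9 and Car12 (top) and the 49 tested HIF targets (rows, ordered by fold change). Car9, Car12 and the targets in the upper part are blue in SENP7 siRNA libraries, red in control replicates 1 and 2 and mostly pale in control replicate 3.

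Transporters of bicarbonate, protons and lactate, which are known to work beside carbonic anhydrases, fell more often than they rose. Of 37 listed genes 24 were tested, 2 rose (8.33%), 9 fell (37.5%) and 13 did not pass, beside 10.2% higher and 10.7% lower over all genes tested. The median log2 fold change was -0.16. The water channel gene Aqp1 fell to 191, 252 and 232 normalized counts in SENP7 siRNA replicates 1, 2 and 3, against 675, 692 and 477 in control replicates 1, 2 and 3 (log2 fold change -1.44 ± 0.16, adjusted p = 0.000514). Slc4a8, a sodium-dependent bicarbonate transporter, fell to 352 ± 16.7 in SENP7 siRNA libraries, against 547 ± 40.4 in control libraries (adjusted p = 0.00124). Slc16a3, the lactate exporter MCT4, which is also in the HIF list, fell to 1272 ± 109 against 2768 ± 773 in control libraries (adjusted p = 0.00431, but 0.0841 with no filter on low values, and as low as 5.67e-09).

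The sodium-proton exchanger gene Slc9a5 fell by 0.35 on the log2 scale (adjusted p = 0.0121, as low as 0.00198), a call lost without SENP7 siRNA replicate 1 (adjusted p = 0.0616) or control replicate 2 (0.0602). Of the transporter list, 3 members fell without control replicate 2, 4 without SENP7 siRNA replicate 1, and 6 without SENP7 siRNA replicate 2 or 3. The members that rose were 5 without control replicate 3, 1 without SENP7 siRNA replicate 1, and 0 without control replicate 2 or SENP7 siRNA replicate 2 or 3.

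Among 21 tested genes of the vacuolar proton pump, which acidifies compartments and can work beside carbonic anhydrase 2, 1 rose (4.76%) and 4 fell (19.0%), where 10.2% of all genes tested rose and 10.7% fell. Atp6v0d2, an isoform known from osteoclasts, fell to 25.6 ± 6.43 in SENP7 siRNA libraries, against 96.4 ± 28.0 in control libraries (log2 fold change -1.86 ± 0.27, adjusted p = 0.00203). Atp6v1c2 fell by 0.88 on the log2 scale (adjusted p = 0.0138) and Atp6v1e1 by 0.31 (adjusted p = 0.0213), and Tcirg1 rose by 0.30 (adjusted p = 0.0112). The Atp6v1c2 call was lost without control replicate 2 (adjusted p = 0.0754; 0.000154 at the lowest). The Tcirg1 call was lost without control replicate 2 or SENP7 siRNA replicate 2 (adjusted p = 0.0609 and 0.0558; 0.00126 at the lowest). The Atp6v1e1 call was lost without any 1 library other than control replicate 3 or SENP7 siRNA replicate 2 (adjusted p 0.0526 to 0.0895; 0.00289 at the lowest). The falling members were 2 without control replicate 1 or 2 or without SENP7 siRNA replicate 1 or 3, and the rising ones 0 without control replicate 2 or SENP7 siRNA replicate 2.

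Enzymes that use bicarbonate as a substrate, which mitochondrial carbonic anhydrases such as Car5b are known to supply, and near steps rose in 4 of 11 tested genes (36.4%) and fell in 1 (9.09%), where 10.2% of all genes tested rose and 10.7% fell. Mccc2, a subunit of methylcrotonyl-CoA carboxylase, rose to 560, 531 and 504 normalized counts in SENP7 siRNA replicates 1, 2 and 3, against 333, 334 and 316 in control replicates 1, 2 and 3 (log2 fold change 0.70 ± 0.08, adjusted p = 0.00052). Pccb, of propionyl-CoA carboxylase, rose to 1681 ± 58.6 in SENP7 siRNA libraries, against 1185 ± 84.0 in control libraries (adjusted p = 0.00135). Mccc1 and Pcca, the other listed genes of these enzymes, did not pass (adjusted p = 0.979 and 0.1). Acacb, the mitochondrial acetyl-CoA carboxylase, rose by 0.94 on the log2 scale (adjusted p = 0.0135, but 0.0594 without control replicate 2, and as low as 0.002). The citrate carrier gene Slc25a1 fell by 0.48 on the log2 scale (adjusted p = 0.011). The remaining gene that rose was pyruvate carboxylase (Pcx, 0.43 ± 0.12, adjusted p = 0.0334), named after its value was seen. The rising members were 2 without control replicate 2.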

How the data were processed

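STAR 2.6.1d, featureCounts 1.6.4, DESeq2, bcl2fastq and Trim Galore 0.6.4 were used on GRCm38.p6, per the submitters' processing notes. Neither a strand setting nor the authors' DESeq2 version is given there. The deposited library columns hold a normalized signal, reads of each gene after the authors' scaling of each library: every positive value was a whole multiple of 1 step within 0.1 read (100% in each library), so reads were recovered. The deposited table also gives the authors' log2 fold change, its standard error and Wald score, and p-values, per the file headers. GENCODE M21 shares 54349 identifiers with the table, with the same coordinates for each.

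Because the table holds normalized values, limma 3.58.1 (R 4.3.3; trend, robust) was fitted on log2(normalized count + 1) over 14668 genes with at least 10 in at least 3 libraries, two-sided, with Benjamini-Hochberg adjustment and a threshold of 0.05. The procedure was tested on simulated data. Simulated counts varied independently between libraries, so a library apart from its group, such as control replicate 3, was not covered. Alternatives were a replicate block, DESeq2 1.42.0 and edgeR 4.0.16 on recovered reads (3010 and 3034 genes called), TMM scaling, a pseudocount of 5, no filter, a mean of at least 50 and leaving out each library. The 9 genes and the lists were chosen with earlier results of these data known. Named genes were the family, Senp7, up to 4 called genes per list by smallest adjusted p, the 8 nearest to Car9 and the chromosomal neighbours. Promoter sequences are RefSeq's. Separate cultures are not stated beyond the word biological replicates, so p-values measure the spread between these libraries.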

Additional observations from a re-analysis of the deposited data

How the results depend on the processing

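For the 7 carbonic anhydrases of the list that passed the filter no log2 fold change turned sign in any alternative. Leaving out 1 library gave -3.85 to -2.75 for Car9, -2.00 to -1.40 for Car12, -1.63 to -1.12 for Car8, -0.29 to -0.19 for Car5b, 1.11 to 1.21 for Car2, 1.05 to 1.58 for Car3, 0.06 to 0.21 for Car13 and -1.13 to -0.96 for Senp7. Genes called were 1619 to 4702 (805 to 2289 higher, 754 to 2413 lower; 3062 with all libraries), and the ranges were 0 to 5 higher and 3 to 10 lower in the transporter list, 0 to 1 and 2 to 4 in the proton pump list, 0 to 1 and 12 to 41 in the HIF list, 2 to 4 and 1 in the carboxylase list, and 1 to 2 and 0 among other family genes. With the replicate number as a replicate block 4175 genes were called and 4 transporters rose. Tpm2 and Anp32e passed with that block (adjusted p 0.0148 and 0.0477). Same-numbered libraries deviated together with correlations of 0.13, 0.062 and 0.25, beside 0.14 for SENP7 siRNA replicate 2 with control replicate 1. These correlations do not settle whether equal numbers mark pairs, and the fit used for the calls took none as pairs. With no filter on low values 14 HIF targets fell, and with a mean of at least 50 no other family gene passed the filter and the test (0). The cause was not tested. Near 0 the sign turned for Nsmaf (0.0035 with DESeq2, 0.0037 with edgeR, 0.0062 with TMM; -0.036 to 0.030 with 1 library left out), Ythdf3 (0.0017 with TMM; -0.044 to 0.025), Siah1b (-0.079 to 0.071), Usp32 (-0.099 to 0.039) and 1810022K09Rik (-0.16 to 0.0040). Depth limits Car14, Car4, Car6, Car5a, Car15 and Car1, with at most 68 reads in a group.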

Other observations

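The spread among libraries of a group differed widely between the carbonic anhydrases. In SENP7 siRNA libraries the coefficient of variation over the 3 libraries was 26.1% for Car9, 29.6% for Car12, 29.98% for Car3, 34.6% for Car8, 2.43% for Car5b, 6.20% for Car2 and 10.1% for Car13, beside a median of 5.13% over the 11937 genes with a mean of at least 50. In control libraries it was 60.1% for Car9, above that of 99.7% of those genes, whose median was 7.78%. It was 38.5% for Car12, 37.2% for Car3, 26.6% for Car8, 7.26% for Car5b, 7.04% for Car2 and 4.57% for Car13 in control libraries.

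The authors' deposited table gives Car9 a log2 fold change of -1.01 ± 0.22 (SE), smaller in size than that of Car12 (-1.17 ± 0.21). The ratio of the group means is 10.6-fold for Car9 and 3.23-fold for Car12. DESeq2 on recovered reads here gave -3.40 for Car9 and -1.68 for Car12, so the authors' order of these genes was not reproduced. Why the deposited values differ was not tested. They may not be the same measure as the ratios or limma values, and no smaller Car9 difference is read from them. The authors' deposited table gives -0.92 ± 0.22 for Car8 and 0.73 ± 0.23 for Car3. Here limma gave -1.40 and 1.30, and DESeq2 on recovered reads -1.41 and 1.28. For Car2 (1.03 ± 0.14), Car13 (0.13 ± 0.097) and Car5b (-0.24 ± 0.095) in the authors' deposited table, limma gave 1.15, 0.13 and -0.25. For Car14 the authors' deposited value is 0.23 ± 0.12, a different measure from the ratio to a floor that follows. The 10 reads in SENP7 siRNA libraries, taken as exact against 0 in control libraries, were 3.14-fold above the floor set for the control group.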
